A study of Chlamydomonas reinhardtii with 34 samples.

Results

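The wash of Chlamydomonas reinhardtii cultures into nitrogen-free medium was examined at 0 h, right after the handling. The comparison used 4 of the 34 libraries: the pre-wash and the 0 h library of strain CC-4349 and of strain sta6 (CC-4348), with the 2 strains as pairs. Strain sta6 is a starchless mutant, which lacks a subunit of the enzyme that makes the glucose donor for starch, and CC-4349 is the strain grown beside it. Both strains were grown in HSM, a mineral medium with ammonium chloride and no acetate, in light of 25 µmol photons m-2 s-1 to a density of 4000000 cells per mL, and the pre-wash cells were taken there. Cells of the 0 h group had been washed in the same medium without ammonium chloride and brought to 2000000 cells per mL. The later libraries followed the cultures to 48 h without nitrogen and then to 48 h after an acetate boost. There was 1 library per strain and time point, so p-values reflect the spread between the strains, not between repeated cultures. The wash, the dilution and the loss of ammonium came together and cannot be told apart at 0 h.

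Chlamydomonas takes up ammonium in preference to other nitrogen sources, and without it the cells switch on transporters and scavenging enzymes, lower protein synthesis and later store lipid. Before that, the handling of a culture changes its cell density, its gas exchange and the light each cell receives, and algal transcripts can respond to such changes within minutes. The deposited table lists transcripts by identifier and does not pair them with names. The reference table used here matched 73.2% of the identifiers by locus tag and gave 0 of them a gene symbol. The genes below therefore stand under their identifiers, with no role given.

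The 4 libraries held between 4606714 and 10006645 reads over the transcripts whose reads could be recovered from the steps between low values. Depth did not move with the wash in 1 direction: it was 10006645 reads before and 6560356 after in CC-4349, and 4606714 before and 5284563 after in sta6. Each of the 34 libraries was nearest to a library of its own strain across all genes. Transcript Cre03.g188250.t1.1, which separates the strains, stood at 170.2 RPKM before the wash and 169.9 RPKM at 0 h in CC-4349, against 2.74 and 1.68 RPKM in sta6. RPKM is a read count scaled to transcript length and library depth. The 0 h libraries and those at 0.5 h after the boost stood apart from the rest in 1 respect. They held 12858 to 13093 genes at 1 RPKM or more, and the other 30 libraries held 13488 to 14300. The part of this in the results below was not tested.

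At 0 h, 133 genes were higher and 124 lower in both strains, out of 14513 tested. That is 0.916% of the tested genes called higher and 0.854% called lower. A call needed an adjusted p under 0.05 in limma on log2(RPKM + 1), with a mean change of at least 2-fold and at least 2-fold in the same direction in each strain. The genes called higher had a median change of 1.66 (log2), with medians of 1.80 in CC-4349 and 1.5 in sta6, and their median level went from 7.02 to 26.1 RPKM. The genes called lower had a median change of -1.21, with -1.20 in CC-4349 and -1.23 in sta6, and their median level went from 6.84 to 2.17 RPKM. Over all tested genes the median change was -0.19. The calls were made against a change of 0 and were not centred on this median.

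The size of these lists depended on the libraries used to estimate the spread. Fewer libraries also leave fewer residual degrees of freedom, of which the main fit had 16. The main spread came from the difference between the strains over 17 time points. With the spread of the 10 libraries from pre-wash to 4 h, limma called 22 genes higher and 1 lower. With the spread of the 4 libraries alone limma called 0, with 4739 genes at an unadjusted p under 0.05, where the main fit had 4702. The parts of the spread and of the degrees of freedom in this were not told apart. Scaling the libraries by the median of ratios, which brought the median change to -0.00184, called 288 genes higher and 52 lower, where all 133 genes called higher were kept and 52 of the 124 called lower. That scaling raised the changes as a whole, so rises gained in size and falls near the limit were lost. Quantile normalization, which brought the median change to -0.07, called 114 genes higher and 21 lower and kept 88 of the 133 and 21 of the 124. Described below are the 12 largest rises and the 12 largest falls among the called genes that matched the reference and had at least 10 RPKM in 1 of the 4 libraries. This limit leaves out 4 called genes with a larger rise and 12 with a larger fall than the smallest of those described. Of these 24 genes, 18 lost their call with the spread of 10 libraries, at adjusted p of 0.0502 to 0.156 in limma, and all 12 of the falls were among them. The 6 that kept it were Cre01.g008300.t1.2, Cre01.g008350.t1.2, Cre04.g222750.t1.1, Cre10.g439700.t1.1, Cre16.g685050.t1.1 and Cre02.g143550.t1.1, which also kept it under every other alternative run except the spread of the 4 libraries.

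**Figure D1:**
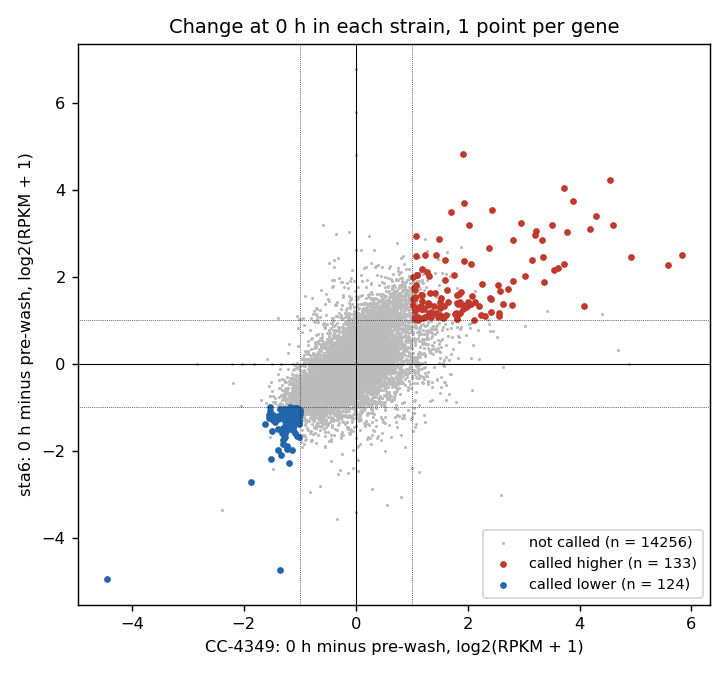
Change at 0 h from pre-wash in CC-4349 (x axis) and sta6 (y axis), each on the log2(RPKM + 1) scale, with 1 point per tested gene and dotted lines at a 2-fold change. The 133 genes called higher (red) reach much further from the origin than most of the 124 called lower (blue), which lie close to the 2-fold lines.

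Each strain alone moved more genes than the shared lists hold. A change of 2-fold or more at 0 h was seen in CC-4349 for 444 higher and 421 lower genes, and in sta6 for 981 and 719. At least 2-fold higher in both strains were 195 genes, and at least 2-fold lower in both were 144. Opposite changes of at least 2-fold were seen in 15 genes, 12 of them higher in CC-4349 and lower in sta6. These counts carry no test, since each strain has 1 library a side. The change was larger in size in CC-4349 than in sta6 for 85 of the 133 genes called higher (63.9%), for 45 of the 124 called lower (36.3%) and for 42.6% of all tested genes.

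The largest mean rise among all called genes was that of Cre01.g008300.t1.2. It rose, at 0.754 RPKM before and 40.1 after in CC-4349 and at 0.645 before and 29.9 after in sta6, and the groups did not overlap. Among all tested genes, the 0 h libraries lay wholly above the pre-wash libraries in 14.6% and wholly below them in 35.5%. For Cre01.g008300.t1.2 the mean change was 4.39 (log2; SE 0.217; limma, adjusted p = 1.38e-10). Behind these levels stood 38 and 15 reads before the wash and 1310 and 774 reads after it. Its neighbour in the reference order, Cre01.g008350.t1.2, rose, at 3.20 RPKM before and 31.7 after in CC-4349 and at 2.74 before and 34.2 after in sta6, a change of 3.10 (SE 0.153; limma, adjusted p = 1.38e-10). Both genes stayed up at later times. In CC-4349, Cre01.g008300.t1.2 measured 90.5 RPKM after 0.5 h, 73.0 after 2 h and 113 after 48 h, and sta6 had 63.6, 72.6 and 91.5 RPKM.

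The most abundant of the 12 described rises at 0 h was Cre10.g452800.t1.1. Its level was 67.6 RPKM before and 1349.8 RPKM after the wash in CC-4349, and 60.1 before and 646 RPKM after in sta6. Cre06.g307500.t1.1 rose from 35.4 to 884 RPKM and from 60.5 to 559.99 RPKM in the same order. Both 0 h libraries lay above both pre-wash libraries in each gene, as in 14.6% of all tested genes. The changes were 3.85 (SE 0.846; limma, adjusted p = 0.0071) and 3.90 (SE 0.539; limma, adjusted p = 0.00032). At 2 h Cre10.g452800.t1.1 had come down to 84.0 and 19.0 RPKM and Cre06.g307500.t1.1 to 97.7 and 64.6 RPKM. In sta6 the first of these was by then below its own pre-wash level.

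Cre10.g439700.t1.1 was high at 0 h and at no other time point. It was at 11.3 RPKM before and 166 RPKM after the wash in CC-4349, and at 8.71 and 78.8 RPKM in sta6, a change of 3.41 (SE 0.227; limma, adjusted p = 2.07e-08). By 0.5 h it was back at 19.7 and 14.1 RPKM, and it stayed close to there, at 13.5 and 11.7 RPKM at 48 h after the boost. Cre16.g685050.t1.1 rose from 15.2 to 163 RPKM and from 12.0 to 93.0 RPKM, a change of 3.10 (SE 0.328; limma, adjusted p = 1.65e-05). Cre02.g143550.t1.1 rose from 10.2 to 103 RPKM and from 7.12 to 62.7 RPKM, a change of 3.09 (SE 0.476; limma, adjusted p = 0.000787). The rise of Cre02.g143550.t1.1 was not confined to 0 h. It stood at 51.6 and 35.8 RPKM at 2 h, and its highest strain mean came at 0.5 h of the boost. None of these 3 genes overlapped between pre-wash and 0 h, which nearly follows from the call. The 0 h libraries lay wholly above in 96.2% of the 133 genes called higher and in 14.6% of all tested genes.

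Some of the largest rises were unequal between the strains, a difference that 1 library a side does not allow to be tested. Cre06.g309000.t1.1 was at 0.0921 RPKM before and 51.6 RPKM after the wash in CC-4349, while in sta6 it was listed at 0 before and reached 3.83 RPKM, on 64 reads. Cre16.g662600.t1.1 rose, at 0.233 RPKM before and 69.0 after in CC-4349 and at 0.072 before and 5.11 after in sta6, where the lower value rested on 1 read. Their mean changes were 3.93 (limma, adjusted p = 0.00398) and 4.17 (limma, adjusted p = 0.0125) and depend on the pseudocount, since the lowest values lie near 0. Cre16.g663450.t1.1 rose, at 5.17 RPKM before and 185 after in CC-4349 and at 15.4 before and 89.5 after in sta6, a change of 3.69 (SE 0.564; limma, adjusted p = 0.000787). Cre06.g276950.t1.1, listed at 0 before the wash in both strains, had 1 read in each 0 h library, and its level of 12.2 and 15.4 RPKM cannot be read as an amount.

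**Figure D2:**
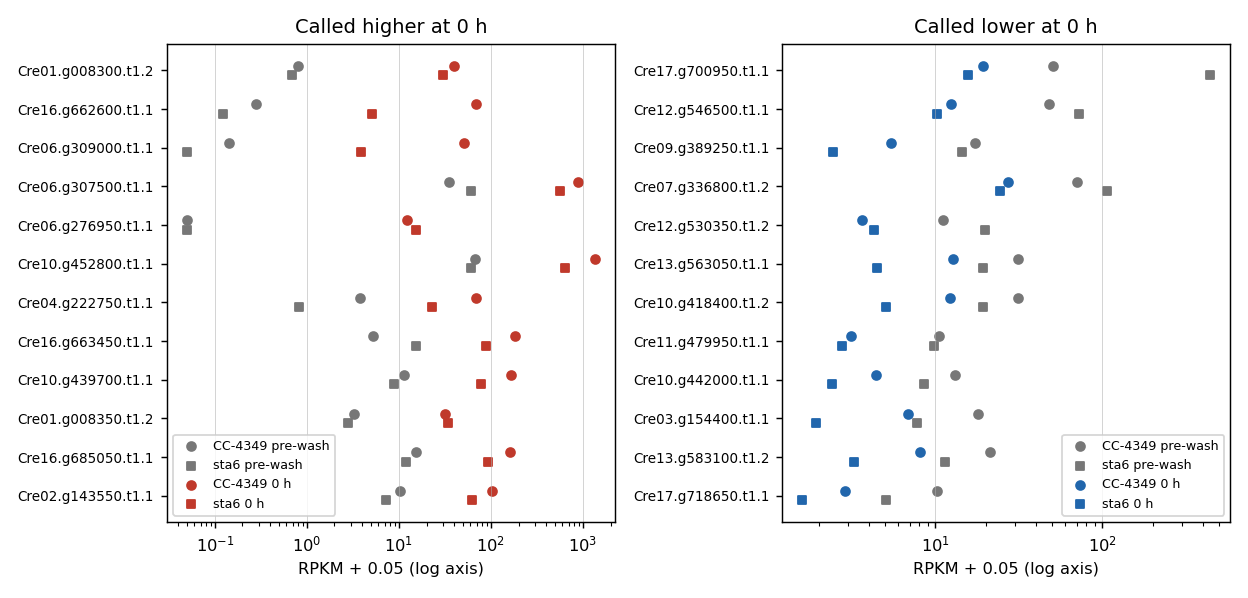
Levels of the 12 described rises (left) and the 12 described falls (right) in the 4 libraries, as RPKM + 0.05 on a log axis; circles are CC-4349, squares sta6, grey before the wash and coloured at 0 h. The genes were chosen for large changes in both strains, and in each the 0 h points lie on the same side of both pre-wash points, as they do in 50.1% of all tested genes; Cre17.g700950.t1.1 shows the widest gap between strains before the wash.

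Falls were smaller. Of the 12 described falls, Cre17.g700950.t1.1 fell, at 50.8 RPKM before and 19.2 after in CC-4349 and at 442 before and 15.6 after in sta6, a change of -3.05 (SE 0.709; limma, adjusted p = 0.00967). Its level before the wash differed between the strains far more than its level after it, and most of the mean came from sta6. Cre12.g546500.t1.1 went from 47.5 to 12.3 RPKM and from 72.8 to 10.2 RPKM, a change of -2.29 (SE 0.383; limma, adjusted p = 0.00132). Cre07.g336800.t1.2 went from 70.6 to 27.3 RPKM and from 107 to 24.4 RPKM, a change of -1.71 (SE 0.287; limma, adjusted p = 0.00137). In each of these 3 genes the 0 h values lay below both pre-wash values. They did so in 98.4% of the 124 genes called lower and in 35.5% of all tested genes.

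The next falls were alike in size. Cre09.g389250.t1.1 fell, at 17.2 RPKM before and 5.38 after in CC-4349 and at 14.3 before and 2.38 after in sta6, a change of -1.85 (SE 0.39; limma, adjusted p = 0.00564). Cre12.g530350.t1.2 changed by -1.69, Cre13.g563050.t1.1 by -1.56, Cre10.g418400.t1.2 by -1.52, Cre11.g479950.t1.1 by -1.51 and Cre10.g442000.t1.1 by -1.45 (log2). The adjusted p of these in limma ran from 0.00538 for Cre11.g479950.t1.1 to 0.0471 for Cre13.g563050.t1.1. The last 3 of the 12, Cre03.g154400.t1.1, Cre13.g583100.t1.2 and Cre17.g718650.t1.1, changed by -1.43, -1.43 and -1.40. Cre11.g479950.t1.1 and Cre13.g583100.t1.2 stood at their lowest level of all 17 time points at 0 h, and the others did not. Some of the 24 changes depended on 1 library. Each fit without 1 of the 4 libraries leaves 1 library on a side, so the change alone is given. Without sta6 at 0 h, 1 of the 24 changes moved by over 1.5 times, that of Cre10.g418400.t1.2, which came to -0.78. Cre10.g442000.t1.1, Cre03.g154400.t1.1 and Cre13.g583100.t1.2 came to just under a 2-fold fall, at -0.981, -0.976 and -0.999. Cre17.g700950.t1.1 alone moved by over 1.5 times when a pre-wash library was left out, to -1.30 without sta6 and to -4.80 without CC-4349. Without CC-4349 before the wash, Cre17.g718650.t1.1 came to -0.937. Without CC-4349 at 0 h, 2 changes moved by over 1.5 times. The rise of Cre16.g662600.t1.1 came to 2.68 and that of Cre06.g309000.t1.1 to 2.32.

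In the reference order, 8 pairs of called genes lay side by side, 7 of them with the same call and 1 with opposite calls. Of the 100 genes called higher with a tested neighbour, 10 (10%) had a neighbour called higher, against 147 of 10302 genes not called (1.43%). Of the 100 called lower with a tested neighbour, 4 (4.0%) had a neighbour called lower, against 167 of the 10302 (1.62%). The 5 pairs called higher were Cre01.g008300.t1.2 with Cre01.g008350.t1.2, Cre04.g222750.t1.1 with Cre04.g222800.t1.1, Cre16.g663400.t1.1 with Cre16.g663450.t1.1, Cre16.g685050.t1.1 with Cre16.g685100.t1.2, and Cre16.g694450.t1.1 with Cre16.g694500.t1.2. Overlap of the transcripts of a pair was not examined, and strand was not used here, so reads may be shared where transcripts overlap.

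The values of the pairs with shared calls were as follows. Cre04.g222750.t1.1 rose, at 3.71 RPKM before and 68.3 after in CC-4349 and at 0.769 before and 22.7 after in sta6, a change of 3.81 (SE 0.557; limma, adjusted p = 0.000543). Its neighbour Cre04.g222800.t1.1 went from 1.23 to 26.3 RPKM and from 1.23 to 9.32 RPKM, a change of 2.91 (SE 0.35; limma, adjusted p = 7.7e-05). Cre16.g663400.t1.1 went from 35.1 to 252.5 RPKM and from 32.4 to 240.2 RPKM, a change of 2.83, and its rise was alike in both strains while that of its neighbour Cre16.g663450.t1.1 was not. Of the lower pairs, Cre12.g553550.t1.1 went from 12.0 to 4.67 RPKM and from 9.73 to 3.25 RPKM, and Cre12.g553600.t1.2 from 3.72 to 1.35 RPKM and from 3.18 to 0.784 RPKM. The other lower pair was Cre11.g475050.t1.1 with Cre11.g475100.t1.1, with changes of -1.10 and -1.25. In the pair with opposite calls, Cre12.g560350.t1.2 rose by 1.58 (limma, adjusted p = 0.0493) and Cre12.g560300.t1.1 changed by -1.09 (limma, adjusted p = 0.00618).

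The later time points share the pre-wash library of each strain with the comparison above, so their values are given as a description. The genes called higher started from a median change of 1.66 at 0 h, with 0.74 after 0.5 h, 0.42 after 2 h and 1.20 after 48 h without nitrogen (log2, against pre-wash). The genes called lower had medians of -1.21, -0.04, -0.21 and -0.21 at the same times, and all tested genes had -0.19, 0.02, 0.20 and 0.23. At 0.5 h, 108 of the 124 genes called lower (87.1%) were within 2-fold of pre-wash in both strains, and 44 of the 133 called higher (33.1%) were. At 2 h the counts were 54 and 60. The share of all tested genes was not counted here, nor for the 2 h counts given below. None of these counts is therefore read as particular to the called genes.

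**Figure D3:**
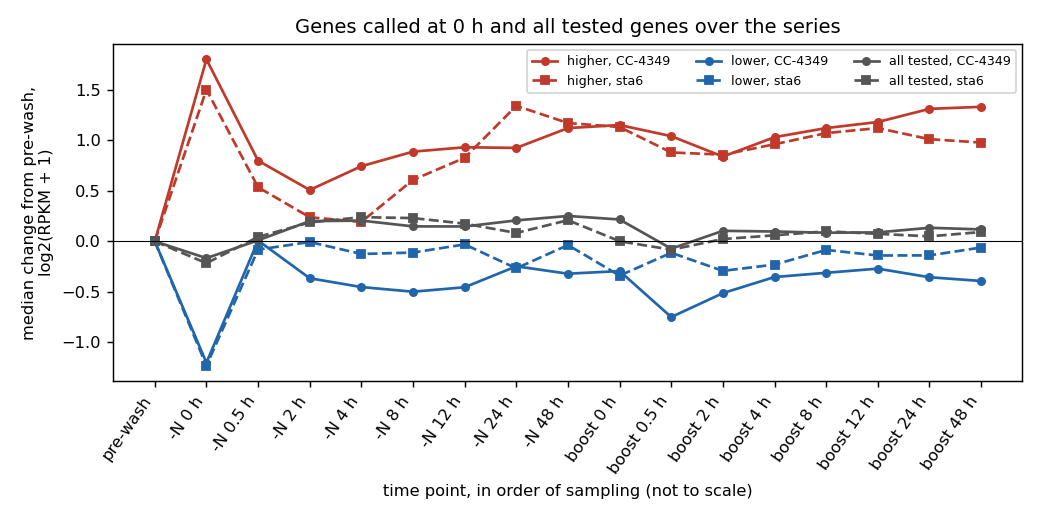
Median change from pre-wash, on the log2(RPKM + 1) scale, of the 133 genes called higher, the 124 called lower and all 14513 tested genes at 17 time points in order of sampling, with solid lines for CC-4349 and dashed lines for sta6. The genes called lower return to near 0 by 0.5 h, and those called higher keep a raised median to the end of the series.

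The genes were chosen from the 0 h values, so the next counts are a description only. In all, 80 of the 133 genes called higher (60.2%) had their highest strain mean of all 17 time points at 0 h, where 9.11% of all tested genes did, and 63 of the 124 called lower (50.8%) had their lowest there, where 25.3% of all tested genes did. The lowest level of a gene was found at 0 h more often than at any other time point across all tested genes, followed by 0.5 h after the boost with 21.2%.

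By 2 h, 11 of the 133 genes (8.27%) had risen further, by at least 2-fold over 0 h in both strains. The share of all tested genes that did so was not counted. The highest level among them was reached by Cre13.g569850.t1.1, named here after its values were seen. It had 4.75 RPKM before the wash, 21.1 at 0 h, then 625 after 0.5 h and 1247 after 2 h in CC-4349. In sta6 the same 4 values were 1.04, 25.4, 658 and 1492 RPKM. Its change at 0 h was 2.82 (SE 0.332; limma, adjusted p = 6.26e-05); the level at 0 h was small beside those that followed. Cre01.g058750.t1.1 followed a like course in both strains, from 3.35 to 22.5 and then 181 RPKM at 0.5 h in CC-4349 and from 3.65 to 53.1 and then 242 RPKM in sta6.

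Some genes went the other way after 0 h. Cre01.g000150.t1.1 rose (limma, adjusted p = 8.16e-05), at 5.31 RPKM before and 72.5 after in CC-4349 and at 8.61 before and 41.5 after in sta6, and was at 0.0254 and 0.0403 RPKM at 2 h, far under its pre-wash level. Of the genes called lower, 5 were above pre-wash at 2 h by at least 2-fold in both strains. Cre12.g560300.t1.1 fell from 25.1 to 11.8 RPKM and from 47.3 to 20.8 RPKM at 0 h and stood at 80.2 and 113 RPKM at 0.5 h. Cre13.g566750.t1.1 fell from 2.62 to 0.525 RPKM and from 1.93 to 0.357 RPKM and was at 12.6 and 16.1 RPKM at 2 h. By contrast Cre03.g154400.t1.1 kept falling, from 17.8 to 6.80 and then 0.125 RPKM at 2 h in CC-4349 and from 7.67 to 1.87 and then 0 RPKM in sta6.

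**Figure D4:**
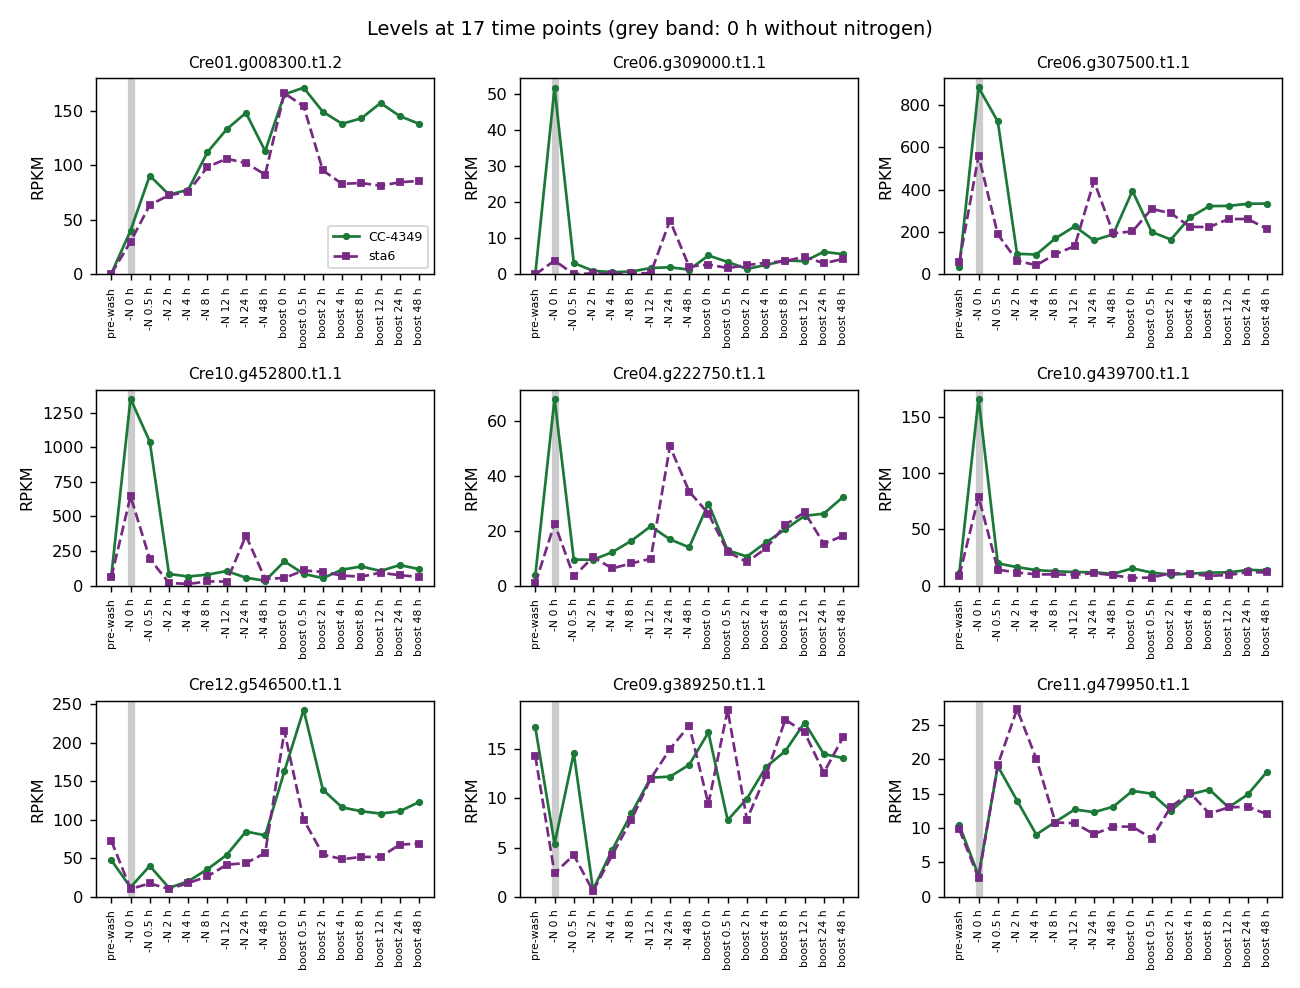
RPKM at all 17 time points (in order of sampling) of 6 genes called higher and 3 called lower, in CC-4349 (solid green) and sta6 (dashed purple), with the 0 h time point marked by a grey band. Cre01.g008300.t1.2 stays up, Cre10.g439700.t1.1 is high at 0 h alone, and Cre06.g307500.t1.1, Cre10.g452800.t1.1 and Cre04.g222750.t1.1 have further peaks, in sta6 at 24 h without nitrogen and in CC-4349 at 0 h of the boost.

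Several genes called higher had a second high point, which was in a different library in each strain. In sta6 it was at 24 h without nitrogen: Cre10.g452800.t1.1 had 29.4 RPKM after 12 h, then 361 after 24 h and 47.7 after 48 h, and Cre06.g307500.t1.1 had 134, 441 and 195 RPKM. In CC-4349 it was at 0 h of the boost, where Cre10.g452800.t1.1 was at 175 RPKM against 35.0 at 48 h without nitrogen and 53.9 at 2 h of the boost. These libraries took no part in the 0 h contrast, although, like all 34, they entered the estimate of the spread. Levels at least 2-fold above both neighbouring time points were found at 24 h in sta6 in 14 of the 133 genes called higher (10.5%), against 0.951% of all tested genes, and in 0 of the 124 called lower. At 0 h of the boost in CC-4349 they were found in 12 of the 133 (9.02%), against 0.937% of all tested genes, and in 1 of the 124. The same points in the other strain gave 0 of 133 at 24 h in CC-4349, against 0.0276% of all tested genes, and 0 of 133 at 0 h of the boost in sta6, against 0.138%. Of the 12 described rises, 6 had such a level at 24 h in sta6. It was above the sta6 level at 0 h in Cre02.g143550.t1.1 (140 against 62.7 RPKM), Cre06.g309000.t1.1 (14.9 against 3.83) and Cre16.g662600.t1.1 (12.9 against 5.11). In Cre10.g452800.t1.1, Cre06.g307500.t1.1 and Cre16.g685050.t1.1 it was below the level at 0 h. The peaks were looked for after the values were seen, and each rests on 1 library.

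The acetate boost at 48 h gave a comparison that shares no library with the wash. Between 48 h without nitrogen and 0 h of the boost, 3 genes were called higher and 3 lower (0.0207% of the tested genes in each direction), and none of them was among the 257 genes called at 0 h of the wash. At an unadjusted p under 0.05, 14 of the 133 genes called higher (10.5%) were higher at 0 h of the boost, where 2.69% of all tested genes were, and 8 (6.02%) were lower, where 5.91% were. Of the 124 called lower, 6 (4.84%) were also higher and 1 (0.806%) was lower. Over the first 0.5 h of the boost, 65 genes were called higher (0.448%) and 498 lower (3.43%). Of the 133 genes called higher by the wash, limma called 0 higher and 12 lower over that time, and 10 (7.52%) were higher and 24 (18.0%) lower at an unadjusted p under 0.05, against 7.05% and 27.1% of all tested genes. The 12 genes are 9.02% of the wash list and 2.41% of the 498. Of the 124 called lower by the wash, 0 were called higher and 1 lower, and 6 were higher and 30 lower at an unadjusted p under 0.05.

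The test of the difference between the wash and the first 0.5 h of the boost called 1394 genes, or 9.61% of those tested. It called 91 of the 133 genes higher at 0 h (68.4%) and 48 of the 124 lower (38.7%). These genes were chosen for the same wash change that the difference contains. Their shares were raised by that choice and are not read as a result. Of the 12 genes that went in opposite directions, Cre06.g293100.t1.1 rose, at 1.80 RPKM before and 10.7 after in CC-4349 and at 4.05 before and 23.6 after in sta6 at the wash, and over the first 0.5 h of the boost it fell from 13 to 1.32 RPKM and from 35.3 to 2.45 RPKM. Its change was 2.18 at the wash (limma, adjusted p = 0.0158) and -2.99 at the boost (limma, adjusted p = 0.000867). Cre18.g744250.t1.1 rose from 3.05 to 9.17 RPKM and from 5.84 to 20.1 RPKM at the wash and fell from 15.8 to 2.33 RPKM and from 25.4 to 2.94 RPKM at the boost. The gene that fell in both was Cre09.g390600.t1.2, with changes of -1.20 and -1.19.

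Reads were sufficient for most of the called genes. The highest of the 4 libraries held a median of 1058 reads for genes called higher and 288 for genes called lower, against 341 for all tested genes. Only 1 of the 131 genes called higher with recovered reads and 2 of the 124 called lower had under 10 reads in each of the 4 libraries. The largest fall of the list belonged to one of these: Cre01.g061400.t1.1 went from 20.7 RPKM to 0 in CC-4349 and from 29.9 RPKM to 0 in sta6, on 3 and 2 reads before the wash, and its change of -4.70 cannot be read as a size.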

How the data were processed

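RNA was sequenced in 34 libraries and the authors deposited 1 table with 17301 transcripts. No header names the unit. The deposited values were taken as RPKM, since low values of a transcript are whole multiples of a step that scales with library depth. Bowtie is named in the submitters' processing notes without a version. The genome build, annotation and counting rule were not given in the sources used here. Whole reads were recovered from the RPKM steps (tolerance 0.02 reads) for 16161 transcripts. They were used to describe depth and the reads behind single genes. They also served to keep genes with 50 reads or more among some of those picked for description. No test used them. Of positive values under 1000 reads, 100% came out whole within 0.05. Testing used limma 3.58.1 in R 4.3.3 on log2(RPKM + 1), with transcripts averaging at least 1 RPKM and terms for time point and strain over all libraries (16 residual degrees of freedom), with Benjamini-Hochberg adjustment over all 14513. The pseudocount shrinks fold changes of low transcripts. Both steps were tested on simulated data. For limma the simulated noise took its spread from the same fit, so it cannot show whether that spread suits this contrast. Named genes were the 12 largest rises and 12 largest falls with a matched identifier and at least 10 RPKM in 1 of the 4 libraries; others were chosen after their values were seen. The reference was Chlamydomonas_reinhardtii_v5.5, used for identifiers and gene order alone. Gene lists chosen by symbol or product matched 0 members and were not run. The comparison, the named-gene rule and the lists were chosen with earlier results of these data known. Labels give no replicate number; strains served as pairs. Alternatives are given in the closing section.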

Additional observations from a re-analysis of the deposited data

Results flagged for a closer look

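Of the 15 genes that changed at least 2-fold in opposite directions in the strains, 10 had 50 reads or more in 1 of the 4 libraries. The 2 with the widest gap between strains are given here. Cre11.g473950.t1.1 was higher after the wash in CC-4349, at 3.39 RPKM before and 8.66 after, and lower in sta6, at 26.9 and 3.94 RPKM, changes of 1.14 and -2.50 (log2), a gap of 3.63. Cre16.g681400.t1.2 was higher after the wash in CC-4349, at 2.56 RPKM before and 7.41 after, and lower in sta6, at 12.1 and 4.22 RPKM, changes of 1.24 and -1.33, a gap of 2.57. In both genes the strains differed before the wash and lay closer together after it. The difference between strains was not tested, since there was 1 library a side in each.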

How the results depend on the processing

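The count of genes called at 0 h (257) was 732 with a pseudocount of 0.1 (196 higher, 536 lower) and 75 with one of 5 (65 and 10). It was 135 with quantile normalization (114 and 21), 23 with the spread of 10 libraries, 0 with that of 4, and 167 without the strain block, where strains are the pairs. It was 2250 with an adjusted p and the same sign alone. The counts given next, with 1 library left out, are list sizes alone. A size near 257 does not mean that the same genes were called. Each such fit dropped some of the 257 genes, and the fit nearest in size dropped a large share of them. Leaving out 1 library gave 259 to 894, where the intact strain alone had to pass 2-fold: 894 without CC-4349 at 0 h and 435 without sta6 at pre-wash. The boost handling count (6) was 10 with quantile normalization and 0 to 144 with 1 library left out: 144 without CC-4349 at boost 0 h, and 0 (468 and 926 at an unadjusted p under 0.05 in limma) without sta6 at boost 0 h or at 48 h without nitrogen. The count at 0.5 h of the boost (563) was 1140 and 120 with pseudocounts of 0.1 and 5, 319 with quantile normalization, and 486 to 1879 with 1 library left out: 1879 without sta6 at boost 0.5 h and 1565 without sta6 at boost 0 h. Of 332 values of the 24 named genes under alternatives, 246 kept the call, 86 lost it and 0 reversed; 18 of the losses came with the spread of 10 libraries and 24 with that of 4. The causes were not tested.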
